A study of Drosophila melanogaster with 9 samples.

Results

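Total RNA of hemocytes, the blood cells of Drosophila melanogaster, was sequenced from third-instar larvae of the W1118 control strain. The control libraries are 3 of the 9 libraries of the series and were chosen by their label alone. The other 6 libraries are 3 from larvae of genotype UAS-BCR-ABLP210, which carry the p210 form of the human fusion kinase BCR-ABL, and 3 from larvae of genotype UAS-BCR-ABLT315I, which carry its T315I form. They are called p210 and T315I here, and transgene libraries together. All 3 groups were third-instar larvae kept at 25 °C for the experiments. Each library pools the cells bled from 300 larvae, so that values per animal do not exist. The labels give no driver line for the transgenes and no sex or age in hours of the larvae.

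Larval blood of the fly holds 3 kinds of hemocyte. Plasmatocytes are macrophage-like cells that take up debris and microbes and secrete much of the basement membrane. Crystal cells carry the enzymes of melanization, and lamellocytes are large flat cells that appear after wasp parasitism or in blood tumours and wrap foreign bodies. The circulation is open, and blood bathes the fat body, an organ that secretes storage proteins and lipoproteins into it, as well as muscle, gut, gonads and the larval skin. A larva is bled by opening its body wall.

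The control libraries held 5.4, 8.24 and 9.84 M counts in replicates 1, 2 and 3, and the transgene libraries between 13.86 and 18.16 M. At these depths 3 counts correspond to 0.554, 0.331 and 0.284 CPM in the controls. Levels are given in CPM, the usual depth-scaled count of a gene, with the library total scaled by the TMM method. They stand for replicates 1, 2 and 3 in that order or as mean ± SD. Replicates differed most among the controls, with a biological coefficient of variation of 0.407 against 0.199 (p210) and 0.132 (T315I). Genes that lie wholly inside another gene were at 0 almost without exception. All of 1225 protein-coding genes nested in another gene without exon overlap had no count in any of the 9 libraries, against 307 of 6986 whose span was free of other genes. The crystal cell gene PPO1, the lamellocyte gene atilla, the plasmatocyte receptor gene NimC4, Adh of the fat body and the small heat shock gene Hsp22 all lie wholly inside another gene. Their 0 is not read as absence. The 38 genes of the mitochondrial genome were at 0 as well.

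By mean CPM, the storage protein genes Lsp1gamma and Lsp1beta of the fat body headed the control libraries. Lsp1gamma, a subunit of the larval serum protein, stands on chromosome 3L at 66430 to 68995 (build dm6, plus strand) and had 34600, 15800 and 11700 CPM. Lsp1beta (2L, 898500 to 901316) had 24800, 17100 and 10900 CPM and was the second most abundant gene. Lsp1alpha on the X chromosome had 19300, 12000 and 5320 CPM. In all 3 genes replicate 1 was highest and replicate 3 lowest. Together they held 7.9, 4.94 and 3.0% of all counts in the controls. The 3 genes encode similar proteins, and reads could be shared between them.

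The most abundant blood cell gene was Hml. It encodes Hemolectin, a clotting protein made by plasmatocytes, and stands on chromosome 3L at 13846054 to 13860001. Its level lay above that of Lsp1alpha in replicates 2 and 3 and above that of Lsp1beta in replicate 3. Its 10600, 12500 and 11600 CPM varied little among the control libraries (11600 ± 941, n = 3). PPO2, a prophenoloxidase of crystal cells on 2R at 9042261 to 9044709, had 5820, 4190 and 5490 CPM. The peroxidasin gene Pxn, whose enzyme crosslinks collagen, had 4370, 3440 and 3730 CPM. PPO2 stood within a 1.39-fold range and Hml within 1.18-fold, whereas Lsp1gamma spanned 2.96-fold. These 2 genes do not stand for their lists. Of 23 plasmatocyte genes at a mean of 10 CPM or more, 5 passed a 2-fold range (23.3% of all genes did).

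Of the 30 most abundant genes by mean CPM, 7 were plasmatocyte genes of the list used, 6 were fat body genes and 3 encode ribosomal proteins. Of the plasmatocyte genes, 6 also stand in the list of basement membrane genes. Among these the laminin alpha gene LanA had 9630, 11400 and 9430 CPM, and the collagen IV genes vkg and Col4a1 had 3290 ± 510 and 2710 ± 513 CPM. The papilin gene Ppn was the exception in spread, with 3640 and 3170 CPM in replicates 1 and 2 and 6340 in replicate 3. Cytoplasmic actin genes stood at 8810 ± 1210 CPM (Act5C) and 7890 ± 1240 CPM (Act42A). The elongation factor genes eEF1alpha1 and eEF2 stood at 13300 ± 1210 and 4850 ± 130 CPM. The highest noncoding gene was snRNA:7SK, whose RNA holds the elongation kinase P-TEFb inactive, at 8260, 8440 and 6570 CPM. Lipophorin (apolpp, 7660 ± 2200 CPM), the storage protein receptor gene Fbp1 (5340 ± 2590) and the small heat shock gene Hsp23 (5240 ± 2510) had wide spreads. The 30th gene, Hsp83, stood at 2370 ± 207 CPM and the next one, eIF4A, at 2340 ± 153, so that the end of this ranking lies within the spread.

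**Figure D1:**
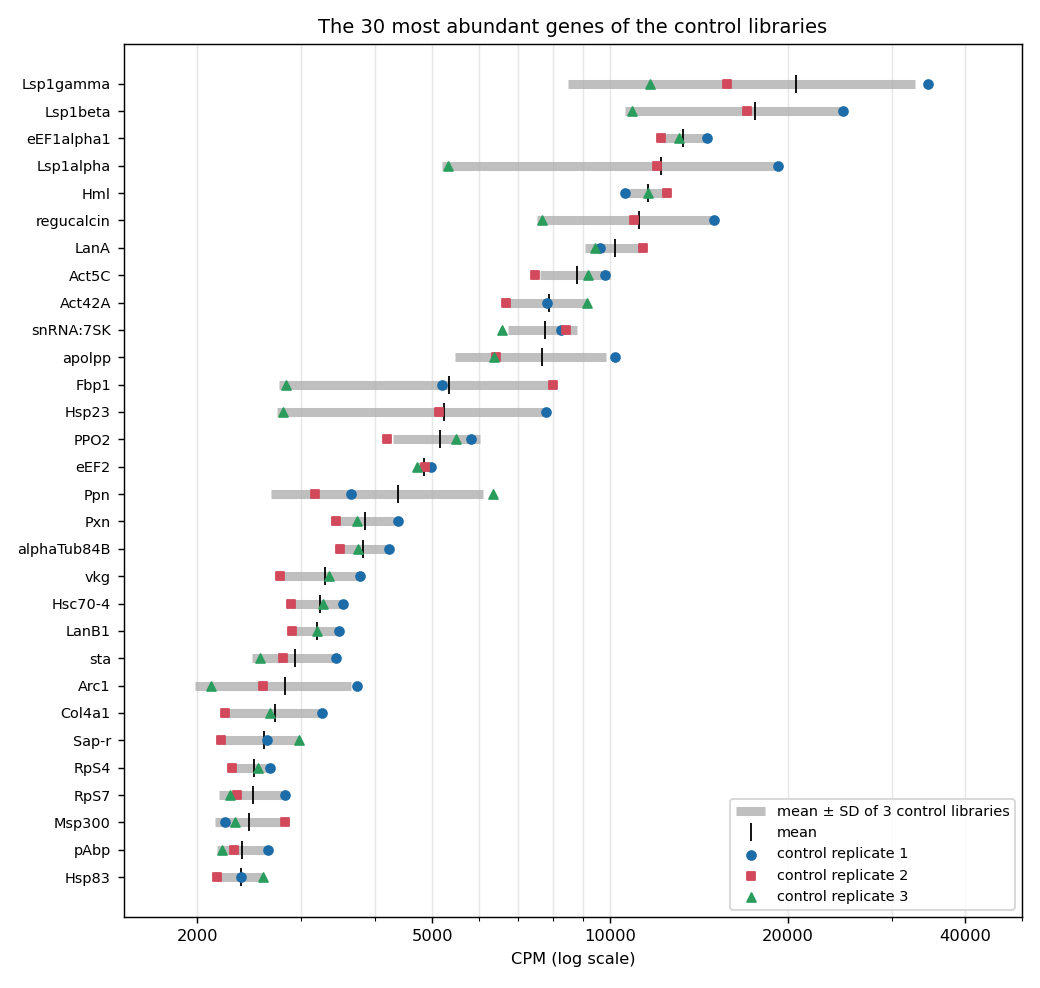
CPM (log axis) of the 30 most abundant genes in the 3 control libraries. Points are single libraries, ticks the mean and grey bars ± 1 SD. Storage and fat body genes such as Lsp1gamma, Lsp1alpha and Fbp1 spread widely, whereas Hml, eEF2 and Pxn lie close together.

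Counts grow with the length of a transcript, so levels of different genes were also ranked per kb of exon. On that scale the protein-coding order was headed by Lsp1gamma at 8270 ± 4870 CPM per kb, regucalcin at 6580 ± 2150, Lsp1beta at 6410 ± 2540 and Hsp23 at 5920 ± 2830. These 4 overlap within their spread. Hml, which has a long transcript, stood at 986 ± 80.0 CPM per kb and at rank 81 among protein-coding genes, while PPO2 stood at 2260 ± 379 and rank 18. The odorant-binding protein gene Obp99b, which the fat body list holds, stood among the first 10 per kb at 3810 ± 1760.

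The label of the samples was checked against markers of blood cells. Of 27 listed plasmatocyte genes, 23 had a mean of at least 10 CPM, and the list held 5.18, 5.41 and 5.55% of counts. The phagocytosis receptor gene eater had 1050, 1150 and 925 CPM, and NimC1 had 324, 259 and 589 CPM. He, which encodes the surface protein Hemese found on all hemocyte kinds, had 426, 330 and 627 CPM. The GATA factor gene srp, which specifies blood cells, stood at 403 ± 33.9 CPM and its partner gene ush at 218 ± 12.6 CPM. The scavenger receptor gene crq was among the steadiest, at 447, 438 and 433 CPM. Markers of embryonic blood were close to the floor, with 0.524 CPM for gcm and 0.147 CPM for gcm2. In bulk RNA, fewer cells of a kind and less RNA per cell cannot be told apart, here and in all that follows.

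Transcription factors of blood cells varied little. None of the 10 listed factors at 10 CPM or more passed a 2-fold range (23.3% of all genes did). The GATA factor gene pnr had 355, 321 and 360 CPM. The JAK/STAT effector gene Stat92E had 431, 356 and 416 CPM, and the Notch receptor gene N had 314, 276 and 349 CPM. Genes of the lymph gland niche were near the floor, with 0.948 ± 0.539 CPM for kn (collier) and 0.788 ± 0.538 CPM for Antp.

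Receptors and opsonins of phagocytosis held 0.584, 0.503 and 0.591% of counts. The engulfment receptor gene drpr (Draper) had 493, 391 and 602 CPM and the thioester protein gene Mcr 275, 254 and 296 CPM. NimB2, a secreted relative of the Nimrod receptors, had the widest spread of those named, with 594 CPM in replicate 1 and 212 and 160 CPM in the others. The basement membrane list held 3.4, 3.39 and 3.55% of counts. The laminin gamma gene LanB2 had 1600, 1690 and 1480 CPM, whereas the nidogen gene Ndg was low, with 14.2, 7.39 and 1.42 CPM. The growth factor receptor gene Pvr, which hemocytes need for survival, had 1420, 1160 and 1030 CPM.

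Crystal cell genes were led by PPO2. The list of 12 genes held 0.709, 0.574 and 0.701% of counts, and 4 of the 12 are nested genes at 0. The Runx factor gene lz, which specifies crystal cells, had 18.6, 14.9 and 22.6 CPM. CG10467 and CG7860, which the list also holds, stood at 503 ± 82.5 and 419 ± 107 CPM.

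Genes of the lamellocyte list were present in all 3 control libraries, and they set replicate 3 apart. The list of 20 genes held 0.707 and 0.75% of counts in replicates 1 and 2 and 1.72% in replicate 3. Its highest member was zip, and 5 of the 20 stand in another list as well, so that these shares are not particular to lamellocytes. Of 18 members at a mean of at least 10 CPM, 16 were highest in replicate 3 (37.5% of all 6942 genes at that level were). The same 16 lay in replicate 3 below all 6 transgene libraries, a pattern that 24.2% of all genes showed. PPO3, the lamellocyte prophenoloxidase, had 37.3, 47.6 and 295 CPM, and between 715 and 1020 CPM in the transgene libraries. The integrin alpha subunit gene ItgaPS4 (2R, 15258761 to 15262873) had 7.38, 26.5 and 558 CPM, and at least 980 CPM in each transgene library. ItgaPS5 had 25.3, 23.4 and 516 CPM, and the water channel gene Drip 9.96, 19.3 and 216 CPM. The cytoskeletal linker genes shot, cher (filamin) and rhea (talin) had 2860, 2360 and 1990 CPM in replicate 3. In replicates 1 and 2 they had 758 and 932 (shot), 678 and 669 (cher) and 752 and 844 CPM (rhea). The nonmuscle myosin gene zip, also among the 16, differed far less between the libraries, with 1920, 1850 and 2030 CPM.

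Clotting genes differed in spread. The silk-like clot protein gene fon, made by the fat body and hemocytes, had 4230 CPM in replicate 1 and 927 and 754 CPM in the others. The transglutaminase gene Tg, whose enzyme crosslinks the clot, was low at 5.17, 3.42 and 9 CPM. Antimicrobial peptide genes were low as a list, at 0.0252, 0.0347 and 0.025% of counts, and 5 of 29 reached a mean of 10 CPM. The highest was the diptericin gene DptB at 115, 87.4 and 64.6 CPM, followed by AttD at 59 ± 7.56 CPM and the drosomycin gene Drs at 41.1, 78.1 and 27.7 CPM.

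Genes of other larval tissues made up a measurable part of the bled sample. The 26 fat body genes held 11.9, 8.53 and 5.3% of counts, more than the plasmatocyte list in replicates 1 and 2. In the transgene libraries the same list held between 0.738 and 1.66%. Of 23 fat body genes at a mean of at least 10 CPM, 16 were highest in replicate 1 (32.8% of all genes were) and 15 were lowest in replicate 3 (20.8% of all genes were). Not all followed. The fatty acid synthase gene FASN1 had 567, 453 and 637 CPM and the desaturase gene Desat1 403, 251 and 450 CPM, both highest in replicate 3.

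Muscle genes held 0.654, 0.777 and 0.498% of counts, and between 0.418 and 0.913% in the transgene libraries. Msp300, a giant nesprin that anchors nuclei, was the highest member at 2230, 2810 and 2320 CPM, with only 35.1 CPM per kb. The whole list summed to 6510, 7060 and 4640 CPM. Of 21 muscle genes at 10 CPM or more, 18 were lowest in replicate 3 (20.8% of all genes were). The muscle myosin heavy chain gene Mhc had 437, 391 and 164 CPM, the myosin light chain gene Mlc2 574, 624 and 238, and the muscle actin gene Act57B 272, 234 and 117. Cuticle genes held 0.109, 0.0847 and 0.0534% of counts, and all 9 that reached 10 CPM were lowest in replicate 3 (20.8% of all genes were). The larval cuticle protein genes Lcp1 and Lcp4 had 42.8, 40 and 12.5 CPM and 81, 85.8 and 26.5 CPM. Most listed fat body, muscle and cuticle genes were thus lowest in the library in which most lamellocyte genes were highest.

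Most salivary gland genes at 10 CPM or more and the Jonah proteases of the midgut were highest in replicate 3. The salivary gland list, made up of glue protein and Eig71E genes and a few regulators, held 0.014, 0.0322 and 0.428% of counts. Only 6 of its 24 genes reached 10 CPM, 5 of them highest in replicate 3 and 1 in replicate 1. The midgut list of digestive proteases, amylases, maltases and lysozymes held 0.0594, 0.0517 and 0.172%. Of 14 midgut genes at 10 CPM or more, 10 were highest in replicate 3 (37.5% of all genes were), all of them Jonah proteases. The other 4, which are the maltase genes Mal-A5 and Mal-A6, the amylase gene Amy-d and the trypsin gene iotaTry, were all lowest in replicate 3, as most fat body and muscle genes were. Mal-A5 had 300, 262 and 131 CPM and Amy-d 59, 14.5 and 8.9 CPM. Tracheal genes held 0.0302 to 0.0538% of counts, and the apical matrix gene dpy had 236, 278 and 108 CPM. Genes of neurons and glia held 0.0323 to 0.0411% and those of imaginal discs 0.0615 to 0.0796%. Among them the sodium pump subunit gene nrv2 had 128, 179 and 167 CPM and the Hedgehog effector gene ci 274, 170 and 195 CPM. Markers of the ring gland, the endocrine organ that makes ecdysone, were near the floor, with 0.233 CPM for phm and 0.308 CPM for dib. Of the 10 listed genes, 2 reached a mean of 10 CPM. They were Npc1a, the highest, at a mean of 251 CPM, and sro at 79.2, 64.2 and 33.4 CPM.

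**Figure D2:**
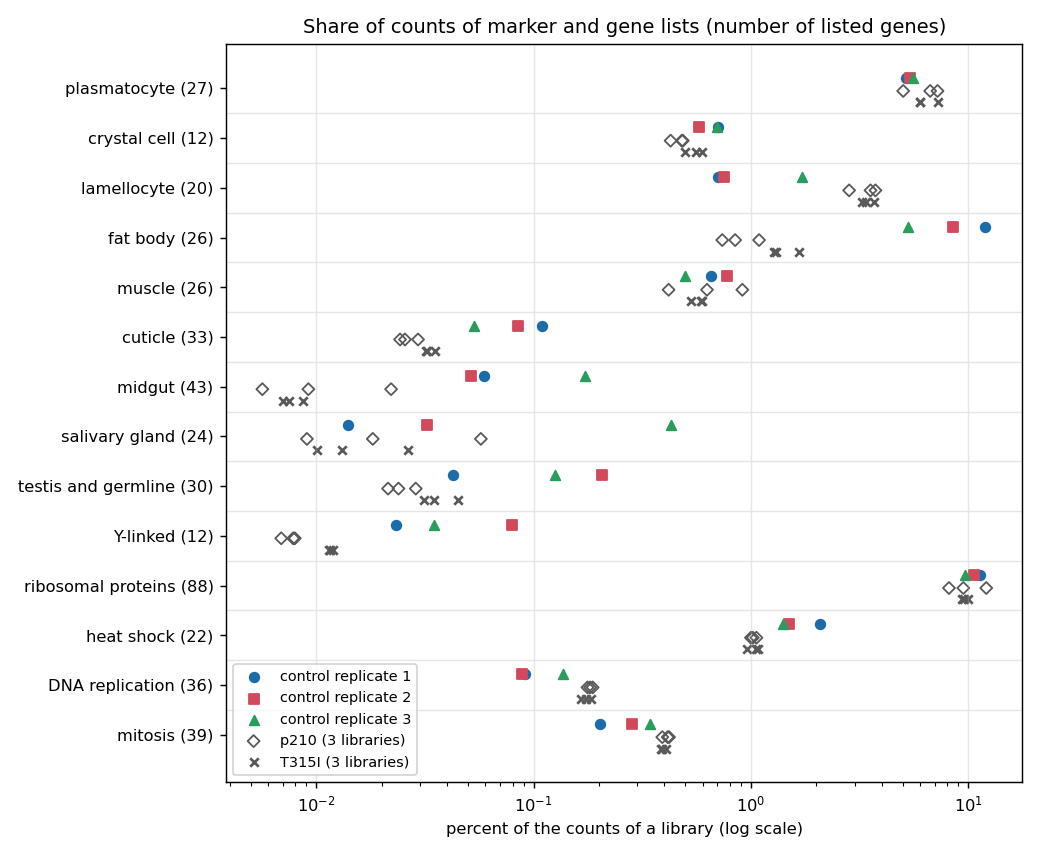
Percent of each library's counts (log axis) held by 14 lists, with the number of listed genes in brackets. Coloured points are the 3 control libraries, open diamonds p210 and crosses T315I. The control libraries lie close together for plasmatocyte and ribosomal protein genes and far apart for salivary gland, testis and lamellocyte genes.

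Testis and germline genes and genes of the Y chromosome were present too, and highest in replicate 2. The 30 testis and germline genes held 0.0427, 0.206 and 0.126% of counts and the 12 Y-linked genes 0.0232, 0.0793 and 0.0347%. The testis tubulin gene betaTub85D had 95, 472 and 264 CPM, and Mst87F, a sperm tail gene, 38.9, 231 and 117 CPM. The Y-linked dynein heavy chain gene kl-3, needed for sperm flagella, had 158, 497 and 203 CPM, and kl-5 had 10.9, 61.9 and 24.9. The order of the libraries was the same for these 4 genes. RNAs of dosage compensation, which coat the male X chromosome in somatic cells, did not share it. The gene lncRNA:roX1 had 1100, 565 and 1020 CPM and was lowest in replicate 2, and lncRNA:roX2 had 198, 169 and 123 CPM.

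The spread among the control libraries was then described for every gene. The measure was the log2 ratio of the highest to the lowest library after adding 0.5 CPM, for the 6942 genes with a control mean of at least 10 CPM. The median range was 0.49 in the controls, against 0.36 (p210) and 0.2 (T315I). A range of at least 2-fold was found in 1617 genes (23.3%) and of at least 4-fold in 739 genes (10.6%). For the same genes, 6.08% in p210 and 3.49% in T315I passed 2-fold, and 0.49% and 0.706% passed 4-fold. The genes were chosen by their control mean, and the ranges were not tested. Without replicate 1, 2 or 3 the number past 4-fold was 100, 181 and 617. The control libraries were also the shallowest.

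**Figure D3:**
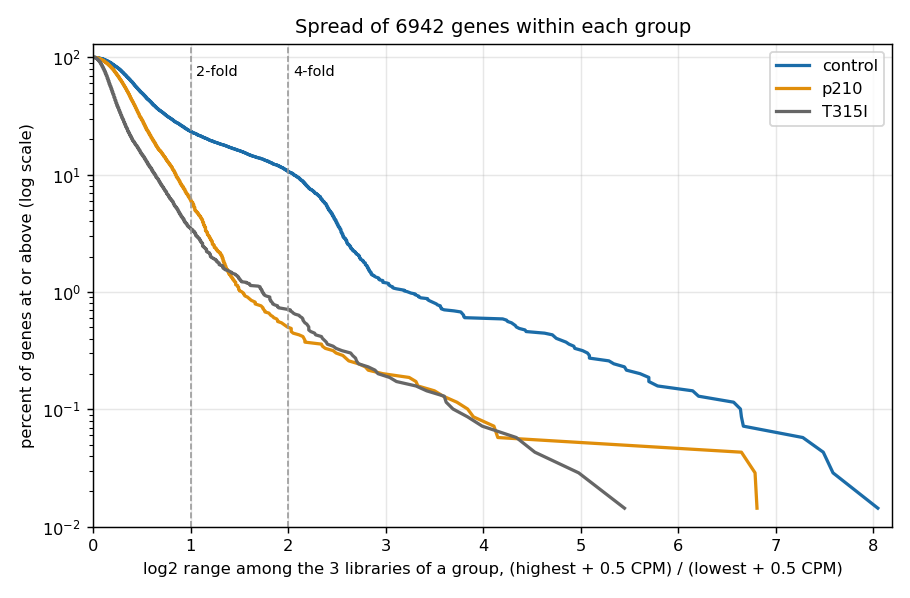
Percent of 6942 genes (log axis) whose log2 range among the 3 libraries of a group is at or above the value on the horizontal axis. The control curve lies above both others, with 10.6% of genes past 4-fold against 0.49% in p210 and 0.706% in T315I.

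The genes past 4-fold fell into 3 sets by the library in which they were highest. Most, 588 of 739 (79.6%), were highest in replicate 2, and in 577 of these replicate 3 stood above replicate 1. The choice of the genes limits the ratios between libraries, which are given as a description. The ratio of replicate 2 to replicate 3 had a median of 1.71 and quartiles of 1.53 and 1.9, and that of replicate 3 to replicate 1 a median of 3.05 and quartiles of 2.68 and 3.52. In the 19 testis and germline genes at 10 CPM or more, these medians were 1.44 (quartiles 1.18 and 1.8) and 2.76 (2.37 and 2.98). Of these 19 genes, 10 belong to the 588, and the list was made with earlier results of these data known. The 2 sets are therefore not independent. Summed over the 588 genes, the controls stood at 11128, 50223 and 27968 CPM, p210 between 3385 and 5162 CPM and T315I between 6018 and 8396 CPM. In 587 of the 588 the replicate 2 value lay above all 6 transgene libraries, as it did in 22.5% of all 6942 genes. The genes were chosen for a high value in replicate 2, and nothing is read from that count.

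The genes of this set named next were chosen after their values were seen and do not stand for the whole set. S-Lap1 (3L, 8617235 to 8619474) encodes a sperm leucyl aminopeptidase, one of the abundant proteins of the fly sperm, and had 249, 1420 and 743 CPM. Its relatives S-Lap3, loopin-1, S-Lap2 and S-Lap8 had 858, 801, 669 and 577 CPM in replicate 2, and between 102 and 148 CPM in replicate 1. The chaperonin genes Hsp60B and Hsp60C, relatives of the mitochondrial Hsp60A, had 36.5, 203 and 115 CPM and 77.1, 374 and 234 CPM. The axonemal dynein genes Dhc36C, Dhc98D and Dnah3 had 233, 201 and 210 CPM in replicate 2 and 33.6, 36 and 37.1 CPM in replicate 1. Of the 30 listed testis and germline genes, 10 were in the set. Of 19 at 10 CPM or more, all passed 2-fold, 18 were highest in replicate 2 (29.7% of all genes were) and all 19 were lowest in replicate 1 (36.9% of all genes were). The exception was aub, an Argonaute gene of the germline.

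Genes without a given name were common in the set: 67.7% had only a CG number as symbol, against 32.8% of all 6942 genes. By chromosome, 7.82% lay on the X against 15.6% of all genes, and 29.8% on 3R against 24.8%. Some genes of the set did not follow the order. The melanin pathway gene e (ebony) had 341, 469 and 103 CPM and the signal recognition particle RNA gene 7SLRNA:CR32864 had 1200, 1280 and 289 CPM, both lowest in replicate 3.

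The set highest in replicate 3 counted 102 genes and split further. In 71 of them replicate 3 lay below all 6 transgene libraries. Of all 6942 genes, 2604 were highest in replicate 3 among the controls. In 1682 of these (24.2% of all genes) it lay below all 6 transgene libraries. As the 102 genes were chosen for a high value in replicate 3, nothing is read from the count of 71. The summed level of the 71 genes was 1819, 1962 and 12621 CPM in the controls and between 29287 and 33847 CPM in the transgene libraries. The alpha-tubulin gene alphaTub85E, named after its values were seen, had 58.9, 96.9 and 1190 CPM, and between 2280 and 3140 CPM in the transgene libraries. The lamellocyte list genes ItgaPS4, ItgaPS5, CG1208, CG15347, PPO3, Drip and Itgbn belong to these 71. CG12522 had no count in replicate 1 and 0.11 and 77.5 CPM in the others. CG31219, CG10232 and CG18754 had 0.554, 2.03 and 4.8 CPM in replicate 1 and 107, 187 and 259 CPM in replicate 3.

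In 30 further genes of the 102 the replicate 3 value lay above all 6 transgene libraries (3.31% of all genes). As these genes were chosen for a high value in replicate 3, nothing is read from that count. Glue protein genes, expressed in salivary glands before pupariation, led them. Sgs5 (3R, 17595362 to 17596112) had the largest range of all, with 5.72, 47.7 and 1650 CPM, a 289-fold span. Sgs8 had 2.77, 38 and 628 CPM and Sgs7 6.83, 47.4 and 1320 CPM. They also varied in the other groups: Sgs5 ranged from 1.07 to 174 CPM in p210 and from 1.2 to 73.6 CPM in T315I. The Jonah protease genes Jon99Ciii, Jon99Fi, Jon65Ai and Jon65Aii had 388, 104, 60.3 and 57.8 CPM in replicate 3 and between 0.554 and 9.41 CPM in replicate 1. Jonah genes have near-identical copies and are uncertain one by one. Ribosomal RNA pseudogenes of the X chromosome belong here as well, with 1770, 479 and 4530 CPM for 28SrRNA-Psi:CR45859. Reads of true ribosomal RNA could be counted there.

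The set highest in replicate 1 counted 49 genes, and in 47 of them replicate 1 lay above all transgene libraries (14.8% of all genes). As these genes were chosen for a high value in replicate 1, nothing is read from that count. Lysosomal alpha-mannosidase genes that lie side by side on 2L were among them. LManV (8772946 to 8776263) had 633, 48.9 and 13.8 CPM, LManIII 218, 11.1 and 1.8 CPM and LManVI 532, 38.5 and 19.3 CPM. The ecdysone-inducible gene ImpE2 had 49.3 and 2.1 CPM and no count in replicate 3. LManVI and 18SrRNA-Psi:CR41602 (1120, 36.2 and 71.9 CPM) are named after their values were seen. CR43482, at 25.5, 0 and 9.37 CPM, was also among the 20 widest genes.

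**Figure D4:**
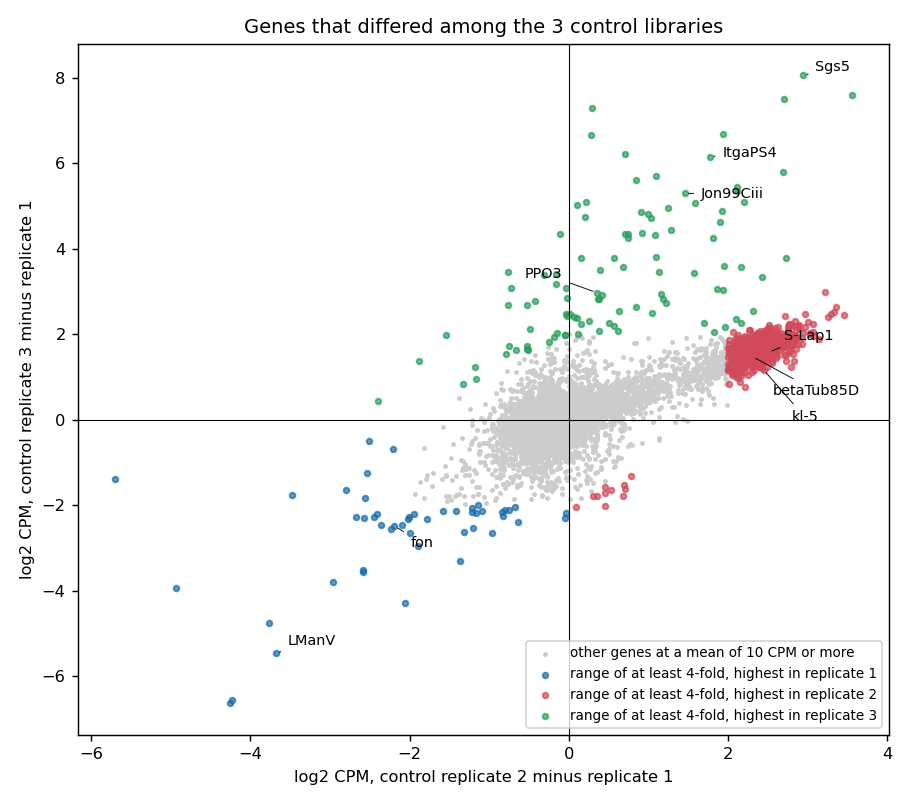
Difference of control replicates 2 and 3 from replicate 1 (log2 CPM + 0.5) for 6942 genes. Coloured points are the 739 genes with a range of at least 4-fold, by the library in which they were highest. Most of the 588 genes highest in replicate 2 form 1 compact cloud that holds S-Lap1, betaTub85D and kl-5. Some, such as 7SLRNA:CR32864, lie outside it. Genes highest in replicate 3 or 1 are scattered. The choice of the coloured genes limits where their points can lie.

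Of the 20 genes with the largest range, 16 were highest in replicate 3 and 4 in replicate 1. The last of the 20 was Jon99Fi at a log2 range of 5.09 and the next gene was Jon66Ci at 5.07. At the other end, the 10 genes with the smallest range at a mean of at least 100 CPM all lay within a log2 range of 0.04. They were Rpn3, Eps-15, Tor, CG4390, l(2)k05819, Clamp, tou, CG6664, Manf and Hr39. The proteasome subunit gene Rpn3 had 192, 194 and 194 CPM, and the neurotrophic factor gene Manf 112, 113 and 112 CPM.

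**Figure D5:**
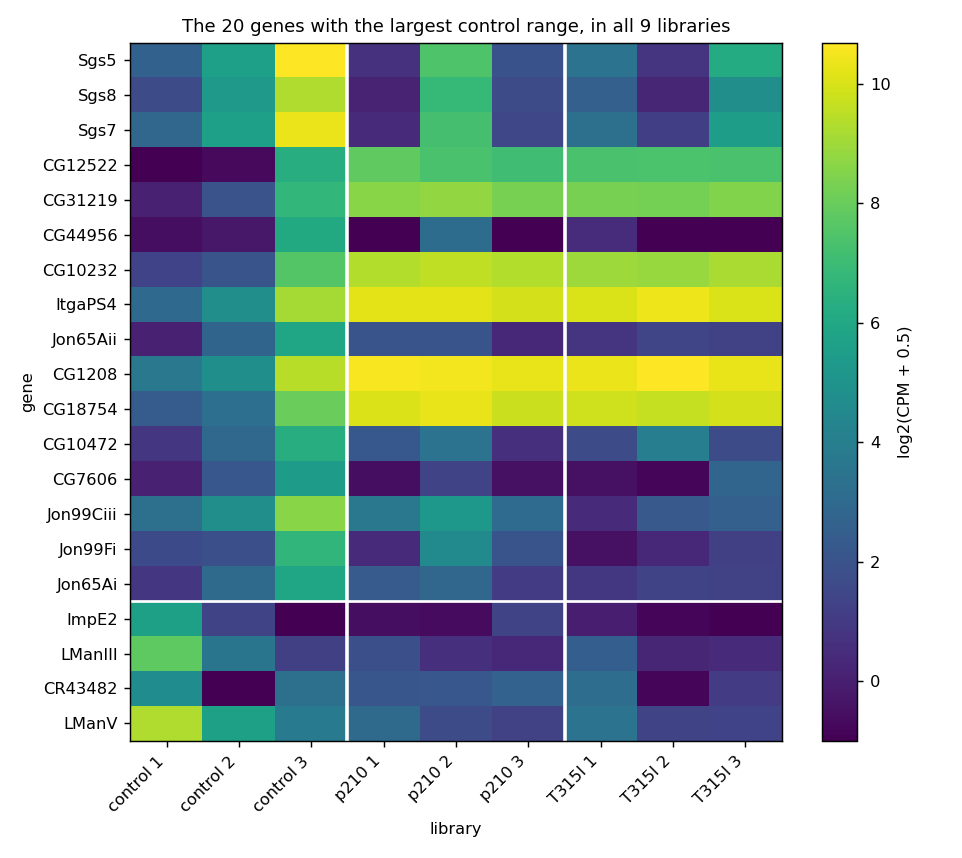
Level (log2 of CPM + 0.5, colour) of the 20 genes with the largest control range in all 9 libraries. Lines separate the groups, and the genes highest in control replicate 3 (16) from those highest in replicate 1 (4). Genes such as ItgaPS4 and CG1208 were high in control replicate 3 and in all transgene libraries, whereas Sgs and Jon genes were high in control replicate 3 and low in most others.

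Some further lists leaned to 1 library. Of 84 ribosomal protein genes at 10 CPM or more, 74 were highest in replicate 1 (32.8% of all genes) and 3 passed 2-fold (23.3% of all genes), and the list held 11.3, 10.6 and 9.67% of counts. Heat shock genes were highest in replicate 1 in 14 of 16 (32.8% of all genes). Of these 16 genes, 9 passed 2-fold and 3 passed 4-fold (23.3 and 10.6% of all genes). Those past 4-fold were Hsp70Aa, Hsp70Ab and Hsp70Bc, near-identical copies that can share reads, and Hsp70Ab had 62, 8.5 and 19.5 CPM. DNA replication genes were highest in replicate 3 in 23 of 25 (37.5% of all genes) and lowest in replicate 2 in 21 (42.4% of all genes were lowest there). Mitosis genes were highest in replicate 3 in 30 of 38 (37.5% of all genes). RnrL, the large subunit of ribonucleotide reductase, had 59, 51 and 112 CPM.

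Finally the controls were compared with both transgene groups together, to show where the control transcriptome differs from the rest of the series. The fit used all 9 libraries, and the contrast was the control minus the mean of p210 and T315I (log2). The transgene and the strain background cannot be told apart in this design. The controls also differed from the other groups in depth, in ribosomal RNA genes (0.245 to 0.672% of counts against 0.0224 to 0.131%) and in spread, and the part of these in the result was not tested. At an adjusted p under 0.05 in edgeR (quasi-likelihood fit, Benjamini-Hochberg), 5943 of 9978 genes were called (59.6%). Of all tested genes, 3257 (32.6%) were higher in the control and 2686 (26.9%) were lower. Of these, 2733 were at least 2-fold higher and 763 at least 2-fold lower. Scaling to the summed plasmatocyte genes, chosen after seeing the data, moved the median over all genes from -0.02 to 0.32 and the share of calls that were higher in the control from 54.8 to 83.3%, with 727 genes called lower.

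Most tested genes of the fat body, muscle, cuticle, midgut, salivary gland, testis and germline, and Y-linked lists were higher in the control. Over all tested genes 32.6% were higher and 26.9% lower. Of 24 tested fat body genes 15 were called higher and 2 lower. Muscle genes were 19 higher and 3 lower of 23, cuticle genes 14 and 0 of 14, midgut genes 22 and 0 of 28, salivary gland genes 9 and 0 of 14, testis and germline genes 21 and 2 of 25 and Y-linked genes 12 and 0 of 12. The medians of the log2 differences were 2.25 for fat body, 2.85 for muscle, 3.55 for cuticle, 3.26 for midgut and 2.29 for testis and germline genes, beside -0.02 over all genes. Shares of counts held by whole lists did not always separate the groups. The muscle list held 0.498 to 0.777% in the controls and 0.418 to 0.913% in the transgene libraries. Shares of the salivary gland and testis and germline lists overlapped too, while those of fat body, cuticle, midgut and Y-linked genes did not. The other tissue lists had smaller medians, although most tested imaginal disc and ring gland genes were higher in the control too. Tracheal genes were 5 higher and 2 lower of 10 (median 0.87), genes of neurons and glia 6 and 4 of 13 (0.36), imaginal disc genes 8 and 3 of 15 (0.80), genes of Malpighian tubules and nephrocytes 6 and 2 of 12 (1.17) and ring gland genes 4 and 1 of 6 (1.53). Without control replicate 3 the midgut count was 15 of 29 and the salivary gland count 7 of 14. Lsp1gamma was higher by 3.47 ± 0.35 (SE, edgeR adjusted p = 0.000205), and by 2.82 without control replicate 1. Lsp1beta, Lsp1alpha, apolpp and regucalcin were higher by 2.99, 4.33, 2.74 and 2.00. Each of the 3 control libraries lay above all 6 transgene libraries for these 5 genes. This absence of overlap was part of how they were chosen, and nothing is read from it. Mhc was higher by 3.04 ± 0.26 and Lcp1 by 4.66 ± 0.40 (edgeR adjusted p = 0.000104 and 0.000109). betaTub85D was higher by 2.56, or 1.94 without control replicate 2, and kl-3 by 2.33, or 1.67 without that library. Antimicrobial peptide genes were divided, with 6 higher and 7 lower of 16 (32.6 and 26.9% of all tested genes). Their median was -0.45, and 2 of 17 were lower without control replicate 3. DptB was higher by 3.74 ± 0.29, and the cecropin gene CecC stood at -2.16. The pigment gene e was higher by 4.50 ± 0.42. Some listed muscle genes went the other way, and Zasp52 was lower in the control by 1.78 on the log2 scale.

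Lamellocyte genes were lower in the control, 14 of 18 tested with 2 higher (26.9 and 32.6% of all tested genes), at a median of -2.15. Leaving out control replicate 1, 2 or 3 gave 12, 11 and 16, and plasmatocyte scaling 9. Over all tested genes, the 5 most abundant called at least 2-fold lower without overlap of libraries were Ppn (-1.62 ± 0.29), shot (-2.46 ± 0.45), betaTub60D (-1.06 ± 0.21), cher (-2.20 ± 0.43) and rhea (-2.10 ± 0.33). Ppn stands in the plasmatocyte list and not in the lamellocyte list. Without control replicate 3, shot stood at -3.29 and cher at -3.06. PPO3 stood at -2.73 ± 0.64 (edgeR adjusted p = 0.00518), and at -4.29 without control replicate 3. ItgaPS4, at -2.51 ± 1.08, did not pass the test (edgeR adjusted p = 0.0704), and stood at -5.99 and passed without control replicate 3.

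Growth and signalling lists were lower in the control too. The shares over all tested genes were 32.6% higher and 26.9% lower. DNA replication genes were 0 higher and 29 lower of 34 and mitosis genes 1 and 22 of 39. JAK/STAT genes were 1 and 13 of 15 and adhesion and cytoskeleton genes 1 and 26 of 34. With plasmatocyte scaling the lower counts fell to 11, 12, 8 and 10. The JAK/STAT count was 9 without control replicate 2. Socs36E, a feedback inhibitor and target of the pathway, had 35.6, 35.6 and 143 CPM in the controls and stood at -2.17 ± 0.44. The thioester protein gene Tep1, with 449, 377 and 643 CPM in the controls and 1270 to 1560 CPM in the transgene libraries, stood at -1.53 ± 0.18.

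For the lists named next, the shares over all tested genes were again 32.6% higher and 26.9% lower. Plasmatocyte genes were 3 higher and 6 lower of 24, with the lower count near the share over all genes. Their median was -0.16, and 0.21 with plasmatocyte scaling. Hml stood at -0.16 ± 0.20 and did not pass the test (edgeR adjusted p = 0.529). NimC1, at -1.49 ± 0.25, He at -1.08 ± 0.19 and Sr-CI at -1.42 ± 0.26 were lower in the control, as was Ppn. The basement membrane gene trol (perlecan) was higher, by 2.33 ± 0.18, and the glutactin gene Glt by 1.13 ± 0.17. Crystal cell genes were 1 higher and 4 lower of 8, 3 and 1 with plasmatocyte scaling, and 3 and 3 without control replicate 2. PPO2 stood at 0.29 ± 0.14 and did not pass (edgeR adjusted p = 0.101), but passed in 5 of 17 alternatives, among them plasmatocyte scaling and the fit without control replicate 2. Ribosomal protein genes were 5 higher and 2 lower of 84, 13 of 85 were lower without control replicate 1, and 11 of 84 higher without control replicate 3.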

How the data were processed

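Total RNA of larval hemocytes was sequenced in 9 libraries of 3 groups. The authors deposited raw counts per gene. Per the labels' protocols, libraries were made with a TruSeq stranded kit after removal of ribosomal RNA. FastQC 0.11.8, HISAT2 2.1.0, featureCounts 2.0.1 and build dm6 are named in the submitters' processing notes. The strand setting of the counting is not given in the sources used here, so that reads of overlapping or antisense genes cannot be told apart. The table lists 17874 genes. Symbols of 17554 are in the Ensembl release 115 annotation (same assembly), and 269 more matched through a RefSeq synonym.

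CPM used TMM-scaled library totals. List shares are percent of raw counts. Ranges used genes with a mean of at least 10 CPM and a prior of 0.5 CPM, without a test. The contrast was fitted with edgeR 4.0.16 (R 4.3.3, quasi-likelihood, robust, filterByExpr, threshold 0.05 after Benjamini-Hochberg adjustment over 9978 genes), and the fit was tested on simulated data. Alternatives were DESeq2 1.42.0, limma-voom (limma 3.58.1), other scalings, filters and priors, omission of single replicates, a replicate block, and, added after seeing the data, scaling to plasmatocyte genes. The sample titles call each library a biological replicate, but no source says that the replicates of a group came from separate crosses. The p-values therefore measure the spread between these libraries, part of which may be technical. Every pair of control libraries differed by far more than counting error (chi-square of 54.4 to 81.8 for each degree of freedom).

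Genes and lists were chosen with earlier results of these data known, and spellings were set to the table's symbols. Named genes are the 30 most abundant, the 10 highest per kb, the highest members of each list with a set of standard markers, the 20 widest and 10 narrowest ranges, and the 5 most abundant genes called at least 2-fold in each direction without overlap. Others are said to be named after their values were seen, or stand as examples of a list.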

Additional observations from a re-analysis of the deposited data

How the results depend on the processing

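The count of genes called higher or lower in the control stayed within 1.5 times under the alternatives run, except that 727 genes were lower with plasmatocyte scaling. With single libraries left out, 4911 to 6380 genes were called. Replicate numbers did not pair the libraries (correlations of same-numbered libraries from -0.318 to 0.166), and a replicate block called 5588 genes. With a minimum of 50 CPM, 523 genes passed 2-fold and 217 passed 4-fold. Leaving out 1 control gave 526 to 1172 genes past 2-fold and 100 to 617 past 4-fold, with the 100 found without replicate 1 and 181 without replicate 2. A range over 2 libraries is narrower by construction. Of the 20 widest genes, 12 were shared without replicate 1, 19 without replicate 2 and 5 without replicate 3. Leaving out genes that share exon bases with another gene gave 4.42% of counts for plasmatocyte, 7.23% for ribosomal protein and 0.241% for muscle genes, against 5.38, 10.5 and 0.643%, since fewer genes are summed. The sign turned for pnr (0.03) and Manf (0.05) with plasmatocyte scaling, and for CG44956 (-1.72) and Jon99Fi (-0.03) without control replicate 3, and the cause was not tested. Without p210 replicate 2 these last genes stood at 8.65 and 4.62. Over all single genes and alternatives, a call was lost 139 times and gained 56 times, and 46 values without a test moved. Depth limits genes near 0.554 CPM in control replicate 1.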
